A study of Mus musculus with 6 samples.

Results

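Carbonic anhydrases and bicarbonate transporters of the choroid plexus were compared between aged and young mice. The genes were 4 carbonic anhydrases (Car2, Car4, Car12 and Car14) and 5 anion transporters (Slc4a2, Slc4a5, Slc4a7, Slc4a10 and Slc26a11), 9 genes of a fixed list chosen by name. Probe sets were taken where the platform annotation gave one of these symbols and no other. This gave 11 probe sets for 8 of the 9 genes, among 45037 probe sets and 18193 genes on the array. Slc4a7, a sodium-bicarbonate cotransporter gene, had no probe set named for it alone here and is not analysed. The samples were 6 arrays from 6 male mice of the outbred CD1 stock, 3 aged 18 months and 3 aged 2 months, with no treatment or engineered allele given in the labels. Each array measured RNA from the whole plexus of both lateral ventricles of 1 mouse, so that all cells of the tissue contributed and the mouse was the replicate. The question was whether transcripts of the acid-base machinery of the fluid-secreting epithelium differ between the ages.

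The choroid plexus epithelium secretes cerebrospinal fluid, and movement of bicarbonate across its cells accompanies the movement of sodium, chloride and water. Carbonic anhydrases interconvert carbon dioxide and water with bicarbonate and a proton. Car2 encodes the soluble enzyme of the cytosol, which is also abundant in oligodendrocytes and red blood cells. Car4 encodes an enzyme held to the outer membrane by a lipid anchor, and Car12 and Car14 encode transmembrane enzymes with an extracellular catalytic domain. Transporters of the SLC4 family exchange bicarbonate for chloride or carry it together with sodium. SLC26 proteins are anion transporters of another family.

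At 18 months 6 of the 8 genes were lower and 2 were higher than at 2 months, but by amounts that did not pass the test. At an adjusted p under 0.05 limma called 0 of the 8 genes, where it called 0% of the 12681 genes tested, and the lowest adjusted p of the 8 was 0.772. At an unadjusted p under 0.05, 0 of the 8 were higher and 0 were lower, where 4.02% and 3.03% of all genes tested were. The median log2 difference, 18 months minus 2 months, was -0.13 over the 8 genes and 0.00 over all genes tested. The 4 transporters tested all lay below 0 (median -0.13), while 2 of the 4 carbonic anhydrases lay above it (median -0.06). Of all genes tested 50.4% lay above 0. The transporter Slc4a5 (-0.02) and the enzyme Car12 (0.05) lay close to 0 and changed sign in other settings, so these counts do not separate enzymes from transporters. The median size of a difference, whatever its sign, was 0.16 for the 8 genes and 0.21 for all genes. All 8 genes passed the filter on dim genes, a mean log2 intensity of 4.92. Car4 and Slc26a11 did so narrowly.

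**Figure D1:**
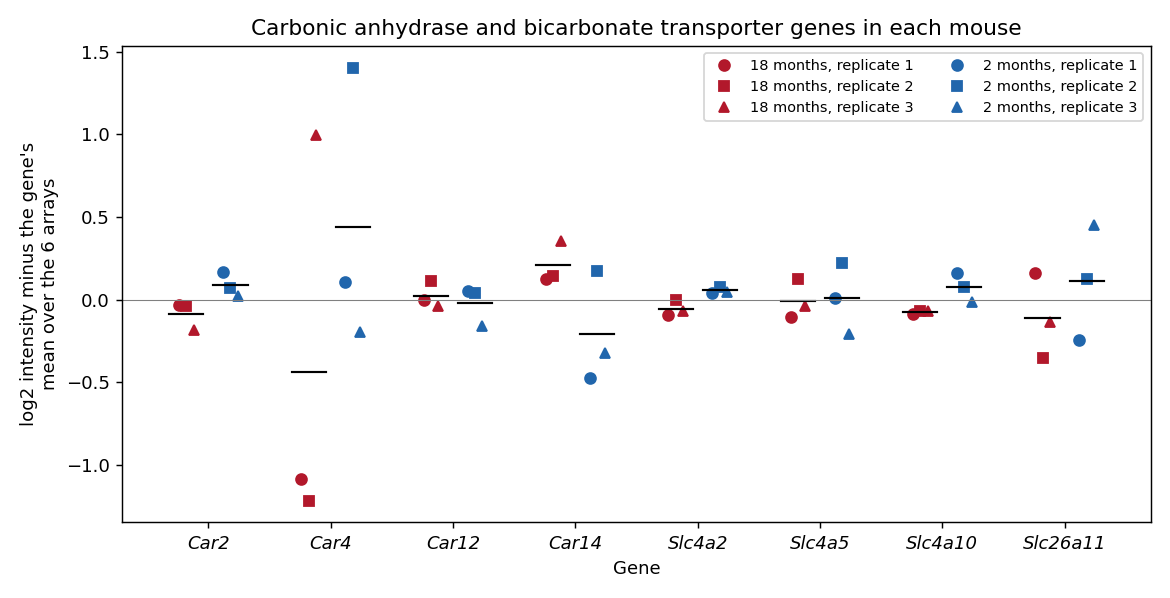
Log2 intensity of 8 carbonic anhydrase and bicarbonate transporter genes in each of 6 mice, as the distance from the gene's own mean over the 6 arrays (vertical axis), with 18-month mice in red, 2-month mice in blue, a symbol for each replicate and black lines for the means of 3 mice. Car2, Slc4a2 and Slc4a10 have narrow, separate ranges that are lower at 18 months, and Car4 spreads over more than any other of these genes.

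In 3 of the 8 genes the ranges of the ages were separate with all 18-month mice lower, where 6.25% of all genes tested had such ranges, and in 0 of the 8 with all 18-month mice higher, where 7.06% did. These genes were Car2, Slc4a2 and Slc4a10. Their log2 differences were small, between -0.17 and -0.11.

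Car2, the cytosolic enzyme, had log2 intensities of 12.24, 12.23 and 12.09 at 18 months against 12.44, 12.34 and 12.29 at 2 months. The highest aged mouse lay 0.05 below the lowest young mouse. The means were 12.19 ± 0.08 and 12.36 ± 0.07 (SD, n = 3 each). The aged mean was thus below the young one by a log2 difference of -0.17 (SE 0.16, 95% confidence interval -0.54 to 0.20, limma adjusted p = 0.853), or 1.13-fold lower at 18 months.

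Slc4a2 encodes the chloride-bicarbonate exchanger of the basolateral membrane, which takes chloride into the epithelial cell. Its log2 intensities were 12.81, 12.90 and 12.83 in the aged mice and 12.94, 12.98 and 12.95 in the young mice. The ranges were 0.04 apart. The log2 difference from 2 to 18 months was -0.11 (SE 0.15, 95% confidence interval -0.46 to 0.25, limma adjusted p = 0.908). As a ratio of 18 months to 2 months this was 0.928, with an interval from 0.725 to 1.19.

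Slc4a10 encodes the sodium-dependent bicarbonate transporter of the basolateral membrane. It had log2 intensities of 11.82, 11.84 and 11.84 at 18 months against 12.07, 11.98 and 11.89 at 2 months. The aged mice differed from each other by less than the young mice did, and the ranges were 0.05 apart. The log2 difference was -0.15 (SE 0.15, 95% confidence interval -0.51 to 0.22, limma adjusted p = 0.868).

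These genes varied little between mice of an age. The residual SD of Slc4a2 was 0.036 on the log2 scale, lower than in all but 0.229% of the genes tested, and those of Slc4a10 and Car2 stood at 1.44% and 2.52% in the same order. Limma draws each gene's spread towards that of all genes, so that the SE of Slc4a2 was 0.15 where its own 6 values gave 0.03. For Slc4a10 the SE from its own values was 0.05 and for Car2 it was 0.06. With a prior spread that follows intensity, limma gave SEs of 0.06 for Slc4a2 and 0.08 each for Slc4a10 and Car2, with unadjusted p-values of 0.0987, 0.118 and 0.0675. Adjusted over all genes these were 0.750, 0.767 and 0.715. The exact permutation p (two-sided) was 0.1 for each of the 3 genes, the smallest that 3 mice against 3 allow. Any gene with separate ranges has this value, so it adds nothing to the separation by which these genes were picked.

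Markers of the epithelium itself were compared in the same way. Of 12 epithelial markers listed, 10 were tested, and by limma 0 passed an adjusted p of 0.05. The log2 difference was below 0 for 7 of them (median -0.09). Ranges were separate and lower for 4 and separate and higher for 1, where 6.25% and 7.06% of all genes tested had such ranges. Ttr, the thyroxine carrier made by the plexus epithelium, had 14.36, 14.30 and 14.25 in the aged mice and 14.48, 14.48 and 14.46 in the young mice. The summed linear intensity of the 10 markers ran from 65014 to 69588 in the aged mice and from 70271 to 72003 in the young mice. Such a sum is led by bright genes such as Ttr. The mean log2 intensity of the same markers overlapped, with 12.30, 12.24 and 12.15 in the aged mice and 12.27, 12.33 and 12.24 in the young mice. When every array was centred on the mean of these markers, the differences were -0.12 for Car2, -0.06 for Slc4a2 and -0.10 for Slc4a10. After that step 1 of the 8 genes, Car2, kept a separate lower range, where 4.62% of all genes did. In such whole-tissue samples fewer epithelial cells and less RNA per cell cannot be told apart.

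Markers of other cells were compared too, and by limma 0 passed an adjusted p of 0.05 in each list. The share above 0 was 50.4% over all genes tested. All 10 ependymal markers lay below 0 (median log2 difference -0.41), and their summed intensity ran from 5932 to 7366 at 18 months and from 7883 to 12092 at 2 months, without overlap. Of 9 tested macrophage markers 8 lay above 0 (median 0.59), with sums from 2795 to 4247 in the aged mice and from 1834 to 3718 in the young mice. Of 7 tested stromal markers 5 lay below 0 (median -0.48), with overlapping sums. The 4 tested pituitary markers had sums from 1081 to 1949 at 18 months and from 384 to 483 at 2 months, again without overlap. Of those 4 markers 2 lay above 0, the growth hormone gene Gh and Pomc (1.34). Lhb (-0.04) and Chga (-0.19) lay below it. Gh, chosen after its values were seen, had 10.40, 10.18 and 9.08 against 4.65, 5.63 and 4.44 (log2 difference 4.98, SE 0.45, limma adjusted p = 0.0540). It was the brightest of the 4 in each aged mouse and so leads their sums. The part of these cells in the differences of the 8 genes was not tested.

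The summed levels of markers of the other sources of Car2 transcript overlapped between the ages. The summed intensity of 10 tested oligodendrocyte markers ran from 3098 to 8191 at 18 months and from 2405 to 8068 at 2 months. Of these markers 9 lay above 0 (median log2 difference 0.24), and by limma 0 passed an adjusted p of 0.05. At a limma unadjusted p under 0.05, 2 were higher, where 4.02% of all genes tested were. Those 2 were chosen after their values were seen. Mog, a myelin surface protein gene, had 6.96, 7.42 and 7.60 in the aged mice and 5.18, 5.33 and 6.21 in the young mice, all aged mice being higher (log2 difference 1.75, SE 0.33, limma adjusted p = 0.328). Ermn, a myelin-associated gene, had overlapping ranges and differed by 2.26 (SE 0.88, limma adjusted p = 0.701). The summed intensity of 5 tested red blood cell markers ran from 8328 to 10752 and from 8969 to 12201. Alas2, the heme synthesis enzyme of red cell precursors, had 8.69, 8.68 and 9.48 at 18 months against 8.45, 8.27 and 9.40 at 2 months. The aged mouse with the highest oligodendrocyte sum, replicate 3, had the lowest Car2 value of all 6. With the mean level of neuron, oligodendrocyte and astrocyte markers as a covariate the Car2 difference was -0.15 (SE 0.16). With that of red blood cell markers it was -0.17 (SE 0.17). The part of oligodendrocytes and red blood cells in the Car2 difference was not tested.

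**Figure D2:**
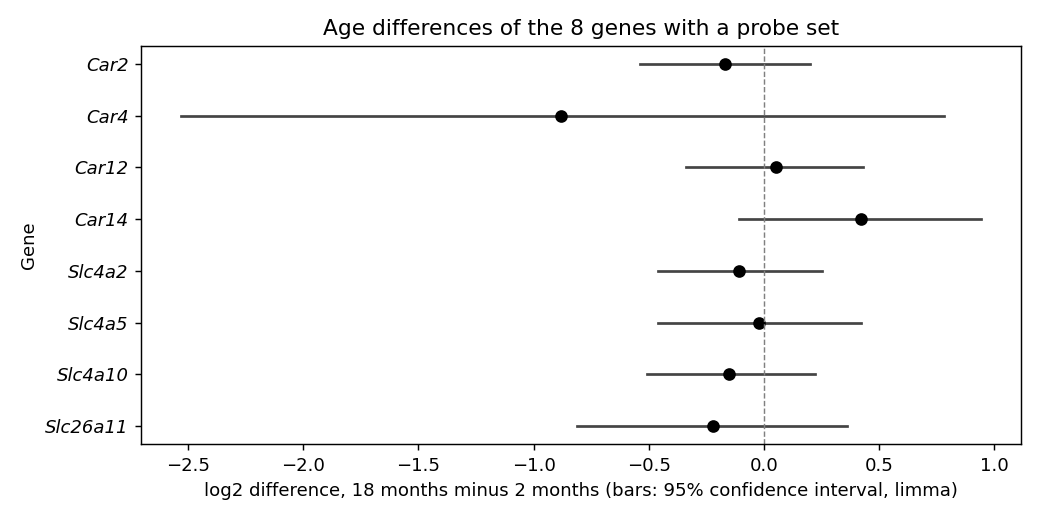
Log2 difference between 18 and 2 months (horizontal axis; points) for 8 genes with 95% confidence intervals from limma (bars), 3 mice per age. Every interval includes 0; that of Car4 runs from -2.53 to 0.78, and that of Slc4a2 from -0.46 to 0.25.

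Car14, a transmembrane enzyme, had the smallest p of the 8 genes and was the one with the largest difference upward. Its log2 intensities were 10.63, 10.65 and 10.86 in the aged mice and 10.03, 10.68 and 10.18 in the young mice. Young replicate 2 lay within the range of the aged mice, and the other young mice lay below all of them. The means were 10.71 ± 0.13 and 10.30 ± 0.34 (SD, n = 3 each), and 18 months exceeded 2 months by 0.42 on the log2 scale (SE 0.22, 95% confidence interval -0.11 to 0.94, limma adjusted p = 0.772), or 1.33-fold. Without young replicate 2 the difference was 0.61 (SE 0.19, limma unadjusted p = 0.0204, adjusted p = 0.705). The difference lay between 0.28 and 0.61 over the 18 other settings tried. The only probe set of Car14 carries the suffix that Affymetrix gives to probes matching more than a single transcript.

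The genes whose levels followed Car14 most closely over the 6 arrays were Rasal2, a regulator of Ras GTPases (Pearson r = 0.996), Slc19a1, the reduced folate carrier (0.992), and Pomgnt2, a glycosyltransferase gene (0.981). Their Spearman correlations were 0.829, 0.943 and 0.829. They were the highest of 12673 genes compared, of which 89 had an r above 0.9, and all are taken from the same 6 arrays. Young replicates 1 and 3 were lowest in each of these genes. Without those arrays r was 0.951, 0.953 and 0.802 over 4 arrays. Pomgnt2 had 9.05, 9.10 and 9.28 at 18 months against 8.41, 8.95 and 8.51 at 2 months, a log2 difference of 0.52 (SE 0.20, limma adjusted p = 0.706). Rasal2 differed by 0.26 (SE 0.17) and Slc19a1 by 0.16 (SE 0.17), the latter by 0.10 without young replicate 1 and 0.25 without young replicate 2.

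Car12, the other transmembrane enzyme, was measured by 3 probe sets that gave different age differences. The brightest, 1428485_at, had log2 intensities of 12.16, 12.27 and 12.12 in the aged mice and 12.21, 12.20 and 12.00 in the young mice. The ranges overlapped, with a log2 difference of 0.05 (SE 0.16, 95% confidence interval -0.34 to 0.43, limma adjusted p = 0.965). Without young replicate 3 this difference was -0.02. A dimmer probe set, 1446517_at, had 7.59, 8.46 and 8.65 at 18 months against 9.18, 9.07 and 8.76 at 2 months. Here all aged mice lay below all young mice, by 0.10, and aged replicate 1 was lowest. In a fit over all 27022 probe sets past the filter its log2 difference was -0.77 (SE 0.31, limma unadjusted p = 0.0460, adjusted p = 0.764). Without aged replicate 1 it was -0.45 (SE 0.23). The third, 1447762_x_at, had 7.59, 7.34 and 7.58 against 7.63, 7.52 and 7.69, a difference of -0.11 (SE 0.17). Its suffix marks probes that may bind other transcripts. With the mean of all probe sets Car12 differed by -0.28 (SE 0.16, limma adjusted p = 0.760), the opposite sign to the brightest alone. Of the 10 probe sets of these genes that passed the filter, 1 had an unadjusted p under 0.05 downward, where 2.81% of all probe sets did, and 0 passed an adjusted p of 0.05, where 0.00370% did.

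Car4, the lipid-anchored enzyme, was dim and varied most. Probe set 1418094_s_at, with the same suffix as that of Car14, had log2 intensities of 4.20, 4.07 and 6.28 in the aged mice. In the young mice it had 5.39, 6.69 and 5.09. Aged replicates 1 and 2 lay under 4.51, the highest mean of 27 control probe sets for bacterial transcripts, while aged replicate 3 lay among the young mice. The log2 difference was -0.88 (SE 0.69, 95% confidence interval -2.53 to 0.78, limma adjusted p = 0.833), and its size exceeded that of 94.9% of the genes tested. Its residual SD exceeded that of 97.2% of them. Without aged replicate 3 the difference was -1.59 (SE 0.50, limma unadjusted p = 0.0208, adjusted p = 0.693), and without young replicate 2 it was -0.39 (SE 0.71). It was -0.55 without aged replicate 1 and -0.49 without aged replicate 2. Over the settings in which it was tested it ran from -1.91 to -0.39. The other probe set, 1448949_at, had a mean under the filter. It read 4.90, 3.09 and 4.78 in the aged mice and 5.08, 5.83 and 3.33 in the young ones. Both probe sets were highest in young replicate 2 and lowest in aged replicate 2.

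Car4 is also made by endothelium, the lining of the vessels. Of 10 endothelial markers 8 were tested, with summed intensities of 573, 982 and 669 at 18 months and 721, 932 and 626 at 2 months. The arrays with the highest sums were aged replicate 2, which was lowest in Car4, and young replicate 2, which was highest. Aged replicate 3 held the most brain signal of all arrays, with a mean log2 intensity of 8.69 over the neuron, oligodendrocyte and astrocyte markers tested, against 7.37 and 7.92 in the other aged mice. The young mice had 7.67, 7.01 and 8.48, so that young replicate 2, the highest in Car4, held the least. Syt1, a synaptic vesicle gene, had 7.83, 8.58 and 9.52 in the aged mice and 8.12, 8.20 and 9.02 in the young mice. With this brain level as a covariate the Car4 difference was -0.92 (SE 0.76). Without the array of each age richest in brain markers it was -1.91 (SE 0.48, limma unadjusted p = 0.0127, adjusted p = 0.796). This setting, added after the data were seen, left out the highest aged and the lowest young Car4 value. The part of endothelium or brain tissue in the Car4 difference was not tested.

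**Figure D3:**
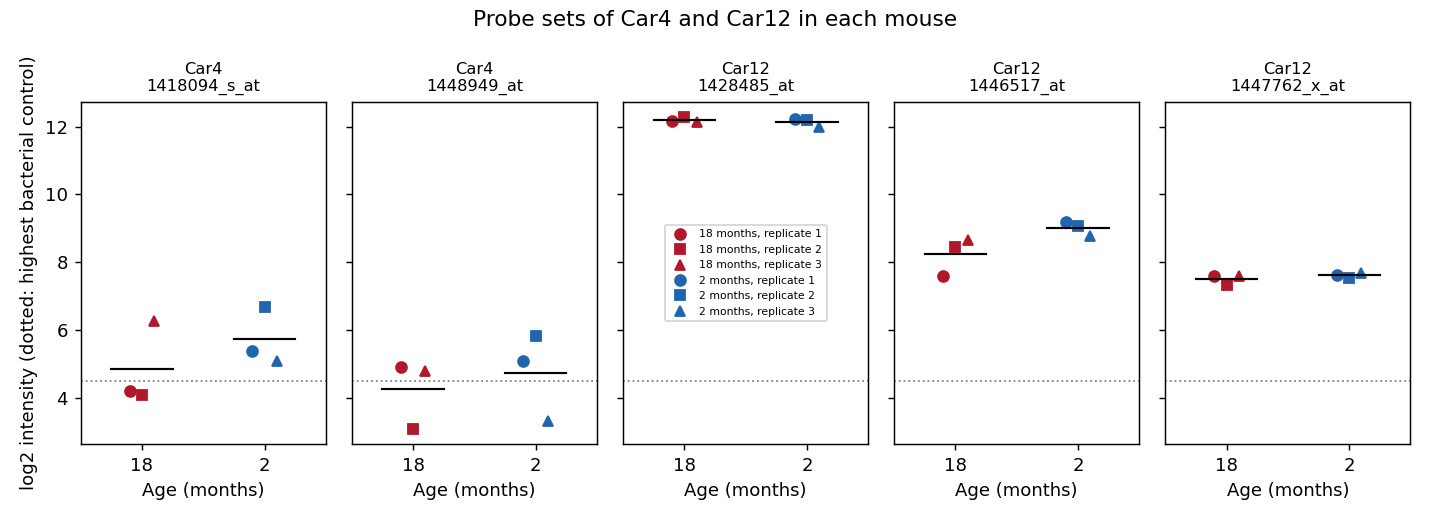
Log2 intensity (vertical axis) of the 2 probe sets of Car4 and the 3 of Car12 in each mouse at 18 months (red) and 2 months (blue), with black lines for the means of 3 mice and a dotted line at the highest bacterial control, 4.51. The Car4 probe sets lie near or under the dotted line in several mice, and for Car12 the probe set 1446517_at alone has separate ranges.

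Slc4a5 encodes the sodium-bicarbonate cotransporter of the apical membrane, which faces the fluid. It had log2 intensities of 12.05, 12.28 and 12.12 at 18 months against 12.17, 12.38 and 11.95 at 2 months. The aged mice lay inside the range of the young mice. By limma Slc4a5 differed by -0.02 on the log2 scale (SE 0.18, 95% confidence interval -0.46 to 0.42, limma adjusted p = 0.989), with an interval for the ratio of 18 months to 2 months from 0.727 to 1.34. Its sign depended on single mice and on the scaling, with values from -0.13 to 0.09.

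Slc26a11, an anion transporter gene of the SLC26 family, was dim. Its log2 intensities were 5.77, 5.25 and 5.47 in the aged mice and 5.36, 5.73 and 6.06 in the young mice, so that the ranges overlapped. The log2 difference was -0.22 (SE 0.24, 95% confidence interval -0.81 to 0.36, limma adjusted p = 0.881). Over the settings in which it was tested it ran from -0.40 to -0.04, with -0.40 and -0.36 without young and aged replicate 1, -0.10 without aged replicate 2 and -0.05 without young replicate 3.

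**Figure D4:**
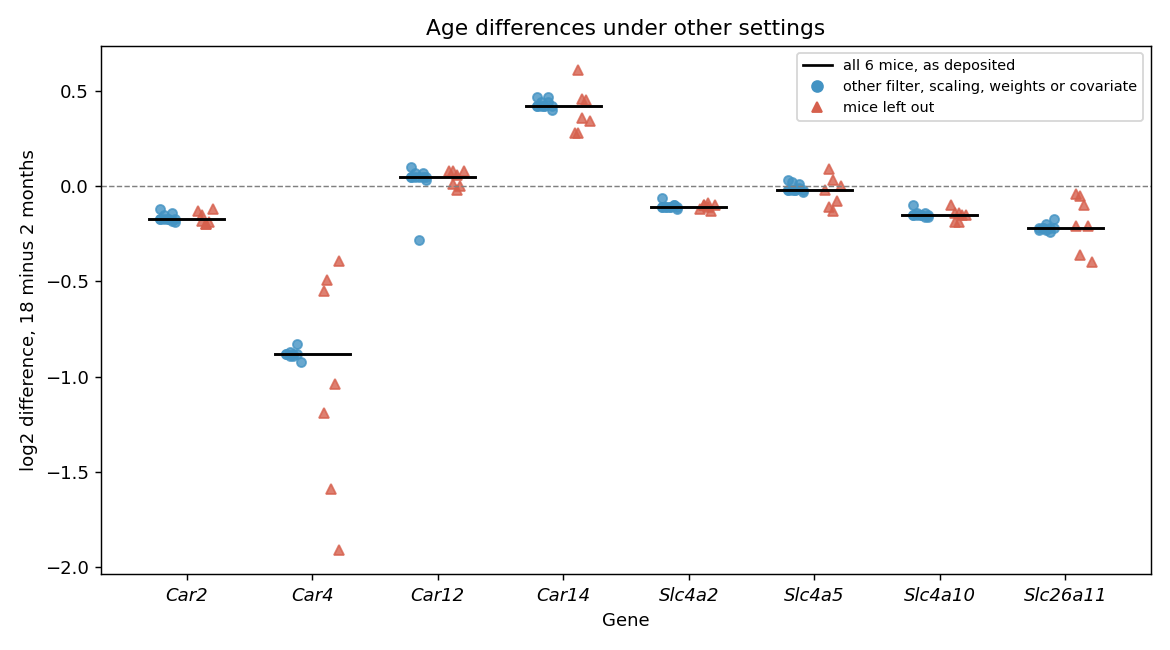
Log2 difference between 18 and 2 months (vertical axis) of the 8 genes with all 6 mice (black lines), with another filter, scaling, weighting or covariate (blue circles) and with mice left out (red triangles). Car14 stays above 0 in every setting, Car2, Slc4a2 and Slc4a10 stay below it, Car4 runs from -1.91 to -0.39 and Slc4a5 lies on both sides of 0.

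The other genes of acid-base and fluid transport were taken from 7 lists with 76 symbols, of which 52 were tested. At an adjusted p under 0.05 limma called 0 of the 52, while 25 lay above 0 and 27 below (median -0.02). At an unadjusted p under 0.05, 1 of the 52 was higher and 3 were lower, where 4.02% and 3.03% of all genes tested were. In 3 genes all aged mice lay above all young mice and in 6 they lay below them, or 5.77% and 11.5%, beside the shares of all genes given above.

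Among other carbonic anhydrases 6 of 12 were tested (2 above 0, 4 below, median -0.04). In RefSeq order Car13, Car1, Car3 and Car2 are consecutive protein-coding genes of a chromosome. Car1 and Car3 had mean log2 intensities of 3.73 and 4.91 and were not tested. Car13, a cytosolic enzyme, had 6.45, 6.44 and 6.07 at 18 months against 6.62, 6.84 and 7.00 at 2 months. All aged mice were lower, with a log2 difference of -0.50 (SE 0.20, limma adjusted p = 0.706). Its other probe set past the filter gave 0.91, and the mean of all its probe sets gave 0.20. Car11, a carbonic anhydrase-related protein gene, differed by 0.39 (SE 0.27), or by 0.22 without young replicate 3 and 0.61 without aged replicate 3.

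Among other SLC4 genes 5 of 6 were tested (1 above 0, 4 below, median -0.12). Slc4a8, a sodium-driven chloride-bicarbonate exchanger gene, had 5.42, 5.74 and 5.91 in the aged mice and 7.03, 5.67 and 6.59 in the young mice. The log2 difference was -0.74 (SE 0.36, limma adjusted p = 0.746), or 0.06 without young replicate 1 when the gene's brightest probe set was chosen anew, and -1.12 without young replicate 2. Slc4a11 differed by 0.73 (SE 0.49), or by 0.35 without aged replicate 1, 0.40 without young replicate 1 and 1.19 without aged replicate 3, and its other probe set by -0.30. Among other SLC26 genes 5 of 10 were tested (4 above 0, 1 below, median 0.19). Slc26a7, an anion exchanger gene, had 9.28, 8.45 and 8.90 at 18 months against 7.85, 8.49 and 8.30 at 2 months. Aged replicate 2 lay within the young range. For Slc26a7 the log2 difference was 0.66 (SE 0.28, limma adjusted p = 0.709), with 0.42 from its other probe set. Slc26a6, a chloride and bicarbonate exchanger gene, differed by 0.50 (SE 0.37). Its difference was 0.22 without aged replicate 1, 0.23 without young replicate 1 and 0.80 without young replicate 2.

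Sodium-proton exchangers, which remove acid from cells, had 5 of 10 genes tested (3 above 0, 2 below, median 0.02). Slc9a9, an exchanger of endosomes, had 5.01, 4.40 and 5.07 in the aged mice and 5.66, 5.54 and 5.52 in the young mice. All aged mice were lower, by a log2 difference of -0.74 (SE 0.23, limma adjusted p = 0.619), and aged replicate 2 lay under the highest bacterial control. Slc9a8 differed by -0.87 (SE 0.61), but by -0.11 without young replicate 1. That mouse had 9.19 against 6.92 and 6.90 in the other young mice. The other Slc9a8 probe set past the filter gave 0.51, and the mean of all its probe sets gave -0.08. Of proton pump subunits 17 of 20 were tested (11 above 0, 6 below, median 0.06). Atp6v1d differed by -0.24 (SE 0.16) and Atp6v0d1 by 0.22 (SE 0.17).

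Regulators of bicarbonate transport had 6 of 9 symbols tested, 2 of the others being newer names of tested genes, and all 6 lay below 0 (median -0.10). Ank3, a scaffold of the lateral membrane, had 6.58, 7.37 and 8.10 at 18 months against 7.97, 9.78 and 8.57 at 2 months. Its ranges overlapped, with a log2 difference of -1.42 (SE 0.56, limma adjusted p = 0.702), or -0.30 without young replicate 2, again with the brightest probe set chosen anew. Its 4 probe sets past the filter ran from -1.42 to 1.03. Ezr, which encodes the membrane linker ezrin, differed by -0.12 (SE 0.16), or by -0.05 without aged replicate 3. Of fluid secretion partners 8 of 9 were tested (4 above 0, 4 below, median 0.01). Aqp1, the apical water channel, had 11.40, 11.99 and 12.02 in the aged mice and 11.15, 11.39 and 10.95 in the young mice. All aged mice were higher, by a log2 difference of 0.64 (SE 0.24, 95% confidence interval 0.08 to 1.21, limma adjusted p = 0.682). The potassium channel subunit gene Kcne2 had 12.25, 12.12 and 12.12 against 12.54, 12.58 and 12.32. All aged mice were lower here, by a log2 difference of -0.31 (SE 0.16, limma adjusted p = 0.766).

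**Figure D5:**
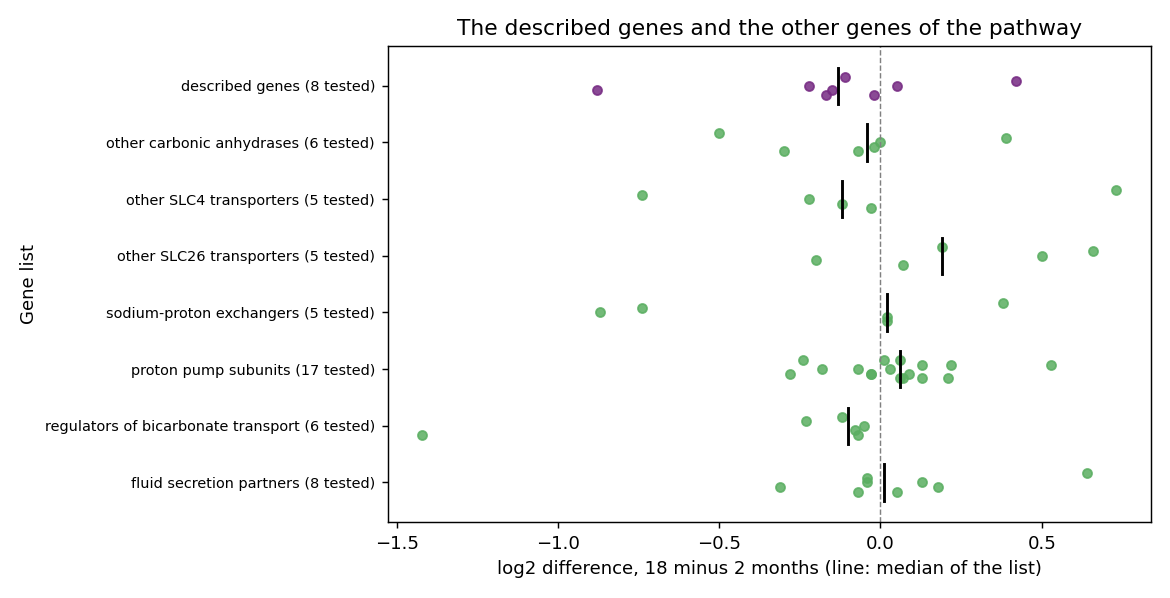
Log2 difference between 18 and 2 months (horizontal axis) for each tested gene of the 8 genes described here (purple) and of 7 lists of acid-base and fluid transport genes (green), with black lines at the list medians. The medians lie between -0.13 and 0.19, and Ank3 at -1.42 lies farthest from 0.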

How the data were processed

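The authors deposited 1 table of linear intensities for 6 Affymetrix arrays, made with RMA (background correction, normalization between arrays, summary of probes) per the submitters' processing notes. Its version is not given in the sources used here. RNA was amplified first, per the labels' protocols, which can distort dim transcripts, and levels of different genes were not compared. The log2 was taken (array medians 5.56 to 5.65). No 2 arrays were identical, and their number limits the precision.

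The brightest single-symbol probe set stood for each gene, and 12681 of 18193 genes reached the 40th percentile (4.92) and were tested. No genome build came with the values. Ages were compared with limma 3.58.1 in R 4.3.3 (two-sided, no covariate, Benjamini-Hochberg over all genes tested, 6.61 degrees of freedom). In 10 simulations of the 12681 genes with 200 changed it called 12.7% of 2-fold and 84.5% of 4-fold changes, with 5.54% false calls.

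Genes named were the 8 with a probe set, up to 2 of smallest p per pathway list, 3 markers and the 3 most like Car14. Genes and lists were chosen with earlier results of these data known. Alternatives were 2 filters, averaged probe sets, 2 scalings, each mouse left out, the replicate block, 2 marker covariates, array weights and an intensity trend. Centring on epithelial markers and leaving out both brain-rich arrays were added after the data were seen.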

Additional observations from a re-analysis of the deposited data

How the results depend on the processing

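At an adjusted p under 0.05 limma called none of the 8 genes in any of the 18 settings in which they were tested, and none of the pathway genes. Over all genes 0 passed, but 4 did with the 60th percentile filter and 4 with array weights, 5 with probe sets averaged per gene and 5 with centring on the array median, 2 with the intensity trend, and 1 each with the brain covariate and with centring on epithelial markers; with a mouse left out the count was 0. The median of the 8 genes was -0.06 with the 60th percentile filter, which left out the dim Car4 and Slc26a11, and lay between -0.12 and -0.11 with a mouse left out. Slc4a5 changed sign with the brain covariate (0.02), array weights (0.01), epithelial centring (0.03) and without aged replicate 1 (0.03) or young replicate 2 (0.09). Car12 did with the mean of probe sets (-0.28) and without young replicate 3 (-0.02), and Car13 with the mean of probe sets (0.20). Slc4a8 did without young replicate 1 (0.06), where another probe set became its brightest and stood for the gene. Syt1 changed sign with the brain covariate (-0.05), of which it is itself a marker, and without aged replicate 3 (-0.24). Alas2 changed sign without aged replicate 3 (-0.02). With a mouse left out Slc4a5 ran from -0.13 to 0.09, Car12 from -0.02 to 0.08, Slc4a8 from -1.12 to 0.06, Syt1 from -0.24 to 0.48 and Alas2 from -0.02 to 0.59. Apart from the changes of probe set, the cause was not tested. Same-numbered mice of the ages did not all deviate together (r = -0.015, 0.019 and 0.168 over genes, which are not replicates). The last was the highest of all pairs of an aged and a young mouse. These correlations cannot decide whether the numbers pair the mice. With the replicate block 0 genes passed, and Car14 differed by 0.42 (SE 0.23, against 0.22 without the block). The SE of Syt1 was 0.24 with the block and 0.46 without it. With signals near the bacterial controls, the size of the Car4 difference is limited by background.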
